A study of Mus musculus with 12 samples.

Results

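The interferon-stimulated genes described here are a list of 37 mouse genes, taken by symbol from the platform annotation, of which 35 were measured among the 18193 genes with a probe set of their own. Each gene was read from its brightest probe set with a single symbol, a probe set being the group of oligonucleotides that an Affymetrix array uses for a transcript. Isg15 was left out because its probe set is shared with Gm9706, and Ifi44 was not analysed here.

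Interferons are secreted proteins that cells release when they sense foreign nucleic acid. Type I interferons act through the Ifnar receptor and the kinases Jak1 and Tyk2, which lead a complex that holds Stat2 and Irf9 to bind the interferon-stimulated response element of target promoters. Interferon-gamma acts through another receptor, and its targets carry the GAS element. The products of these targets cut, edit or mask viral RNA, hinder membranes and nucleotide supply, feed back on signalling, and prepare peptides for MHC class I molecules.

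Total RNA was measured in pre-pro-B cells from Ebf1-/- animals of the C57BL/6 strain, B-lineage progenitors that stop developing for want of the transcription factor EBF1. The cells carried a Mig-EBF1 retrovirus that gives EBF1 back, a Mig-PAX5 retrovirus that brings the later B-lineage factor PAX5, or the control retrovirus MigR1, and each virus also encodes GFP. All groups were Ebf1-/-, grew on OP9 stroma in 4% serum with SCF and Flt3L at 10 ng/ml and IL-7 at 5 ng/ml, and were sorted as GFP+ cells 2 days after infection. Thus the controls were themselves infected by a retrovirus, no uninfected or interferon-treated cells were among the samples analysed here, and the PAX5 cells lacked EBF1. EBF1 arrays 1 to 3 and control arrays 1 to 3 form set 1, and PAX5 arrays 1 to 3 and a second listing of control arrays 1 to 3 form set 2, with 12 arrays in all.

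Between the sets, control arrays that carry the same number differed by a robust SD of 0.0392 to 0.0942 on the log2 scale, against 0.287 to 0.374 for unequal numbers, and PAX5 arrays 2 and 3 differed by 0.0774. Each such pair was therefore counted as 1 sample in the tests, which left 3 EBF1, 2 PAX5 and 3 control samples, and the EBF1 and PAX5 comparisons share those controls. The number of arrays limits the precision, and since nothing says that replicates came from separate cultures or animals, the p-values speak only of the spread among the arrays at hand, which may be technical. The progenitor genes Ptprc, Flt3, Il7r and Ikzf1 were bright in every group. They belong to a list of 10 progenitor genes that did not hold steady with EBF1. In it 7 log2 changes with EBF1 were negative and 3 positive, between -1.65 and 4.17, with a median of -0.31. With PAX5, 5 were negative and 5 positive, with a median of -0.01. In these bulk samples fewer cells of a type and less RNA per cell cannot be told apart.

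The response element itself is shown first, since it is the sequence that the pathway's activator binds. RefSeq promoter windows of 250 bases before to 50 bases after the start (GRCm38.p6) were found for 24 of the 35 genes. The element was searched as GAAA, any 2 bases, GAAA, on both strands, and occurred in 11 of these 24 windows (45.8%), against 3.99% of 27025 genes. The GAS letters TTCNNNGAA were in 37.5% of the members' windows and 9.55% of all windows. The letters CCCNNGGG, the core of the motif that EBF1 binds, were in 16.7% of the members' windows (Cmpk2, Ifi35, Igtp and Trim25) and 15.4% of all windows. A match describes letters in a window and shows no binding. The first match in each of the 11 windows is given 5′ to 3′ on the gene's strand, with the 10 matching bases in capitals, so that the spacing of the repeated GAAA (or TTTC, where the match lies on the other strand) can be seen.
Bst2, chr8:71537583-71537612, minus strand: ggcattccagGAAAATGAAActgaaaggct
Eif2ak2, chr17:78882535-78882564, minus strand: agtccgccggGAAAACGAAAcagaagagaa
Ifih1, chr2:62646206-62646233, minus strand: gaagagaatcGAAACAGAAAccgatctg
Ifit1, chr19:34640775-34640804, plus strand: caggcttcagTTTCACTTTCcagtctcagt
Ifit3, chr19:34583363-34583392, plus strand: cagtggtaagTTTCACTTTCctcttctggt
Igtp, chr11:58199512-58199541, plus strand: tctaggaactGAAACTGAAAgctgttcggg
Irgm1, chr11:48871431-48871460, minus strand: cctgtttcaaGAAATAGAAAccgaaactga
Oas1a, chr5:120907526-120907555, minus strand: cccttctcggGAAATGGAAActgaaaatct
Oas3, chr5:120777715-120777744, minus strand: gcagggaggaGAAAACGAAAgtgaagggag
Rsad2, chr12:26456553-26456582, minus strand: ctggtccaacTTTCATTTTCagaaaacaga
Stat2, chr10:128270266-128270295, plus strand: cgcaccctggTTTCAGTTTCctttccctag

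For Bst2, Ifih1 and Oas1a, whose intensities are among those described, the whole window is given, again with the matches in capitals and with overlapping matches run together. Those of Bst2 and Oas1a each hold a pair of overlapping matches, which makes a run of 3 GAAA repeats.
Bst2, chr8:71537423-71537722, minus strand: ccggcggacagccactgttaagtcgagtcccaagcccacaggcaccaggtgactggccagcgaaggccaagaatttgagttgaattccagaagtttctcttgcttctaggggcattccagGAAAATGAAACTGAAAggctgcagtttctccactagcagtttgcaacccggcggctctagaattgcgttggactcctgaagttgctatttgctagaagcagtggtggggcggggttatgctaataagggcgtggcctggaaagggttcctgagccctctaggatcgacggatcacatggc
Ifih1, chr2:62646206-62646505, minus strand: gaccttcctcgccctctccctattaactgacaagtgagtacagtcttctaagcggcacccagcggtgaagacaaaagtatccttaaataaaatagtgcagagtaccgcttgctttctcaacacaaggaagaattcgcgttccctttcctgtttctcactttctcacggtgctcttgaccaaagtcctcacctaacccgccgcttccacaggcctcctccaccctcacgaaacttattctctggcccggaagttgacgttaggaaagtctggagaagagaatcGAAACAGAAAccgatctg
Oas1a, chr5:120907476-120907775, minus strand: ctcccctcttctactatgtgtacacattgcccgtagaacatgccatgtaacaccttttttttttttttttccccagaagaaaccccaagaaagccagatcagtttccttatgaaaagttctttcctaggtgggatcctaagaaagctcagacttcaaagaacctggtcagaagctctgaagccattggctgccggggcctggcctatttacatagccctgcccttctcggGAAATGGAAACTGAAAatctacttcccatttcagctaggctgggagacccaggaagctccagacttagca

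Neither EBF1 nor PAX5 moved any of the 35 genes past the test. By limma with Benjamini-Hochberg adjustment over all genes, 0 of 35 were called with EBF1, where 0.22% of all genes were called, and 0 of 35 with PAX5, where 0.874% were. The lowest adjusted p of a member by limma was 0.216 with EBF1, for Psmb8, and 0.246 with PAX5, for Trim25. At an unadjusted p under 0.05 the limma counts were 2 of 35 with EBF1 (5.71%, both lower), against 11.6% of all genes in either direction and 5.33% lower, and 6 of 35 with PAX5 (17.1%, 3 higher and 3 lower, or 8.57% each), against 9.45% of all genes, of which 5.33% were higher and 4.13% lower. Nor was any member called by limma when every probe set was tested on its own: of 58 probe sets of the members, the lowest adjusted p was 0.279 with EBF1 and 0.30 with PAX5.

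The fitted changes were small and had no common sign. With EBF1 the median log2 change of the members was -0.04, with 16 above and 19 below 0, and all genes had a median of 0.01. With PAX5 it was 0.05, with 18 above and 17 below 0, against -0.01 over all genes. These medians depended on the arrays kept. Without control array 2 they came to 0.18 with EBF1 and 0.24 with PAX5, and without control array 3 to -0.28 and -0.17. Without array 2 of both the EBF1 and control groups the EBF1 median was -0.09. No member reached a log2 change of 1 in size, which 1.95% of all genes did with EBF1 and 1.63% with PAX5, the largest being -0.94 for Oasl2 with EBF1 and 0.97 for Cmpk2 with PAX5. The precision was poorer than elsewhere on the arrays in this fit, which has no term for array number. In it the 95% interval of the change lay wholly within 1 log2 unit of 0 for 21 of 35 members with EBF1 (60%), against 92.1% of all genes. With PAX5 it did so for 15 of 35 (42.9%), against 90.2%. When number was added to a fit of set 1 alone, the SE of the EBF1 change became smaller for 32 of 35 members (91.4%). This held for 81% of all genes, and 0 members were called with EBF1 in that fit.

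**Figure D1:**
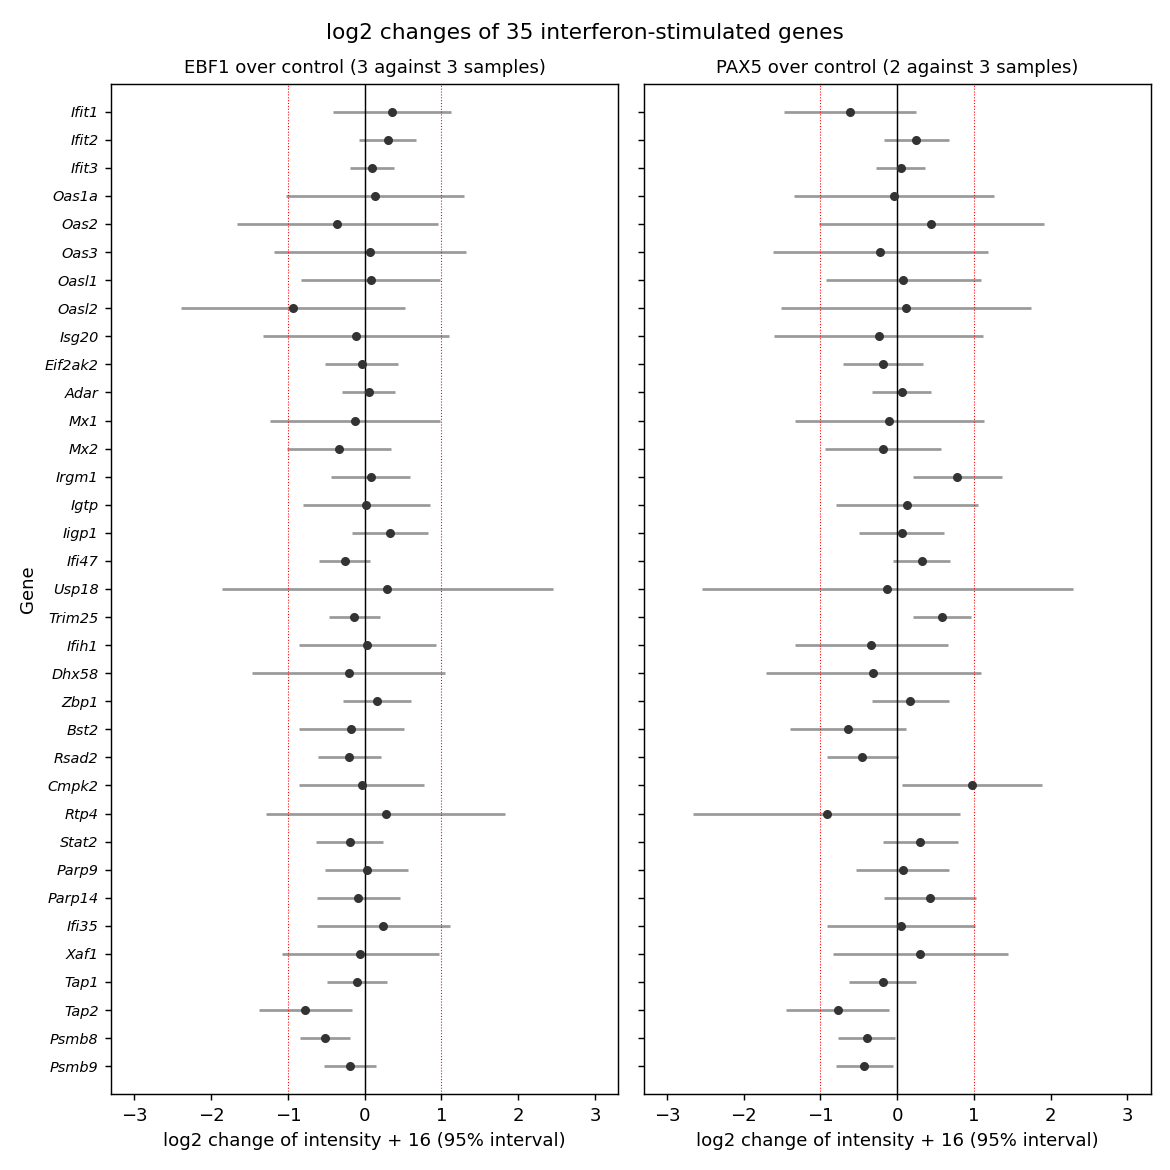
log2 change of intensity + 16 (horizontal axis) of the 35 genes, one gene per row, with 95% intervals from limma, for EBF1 over control (left, 3 against 3 samples) and PAX5 over control (right, 2 against 3 samples); dotted lines mark a change of 1 either way. All 35 points of each panel lie between the dotted lines, and the interval stays within them for 21 genes with EBF1 and 15 with PAX5.

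The members differed by array number within the groups. In both groups of set 1, array 2 was the brightest of 3 for 22 of the 35 genes (62.9%), where this held for 17.3% of all genes. It was the dimmest in both groups for 1 member, Tap2 (2.86%, against 15.5% of all genes). For 10 members (28.6%: Oas1a, Oas2, Oas3, Oasl2, Isg20, Usp18, Ifih1, Dhx58, Rtp4 and Xaf1) array 2 stood at least 1 log2 unit above the mean of arrays 1 and 3 in both groups, as it did for 46 genes in all (0.253%). The median excess of array 2 over the members was 0.67 in EBF1 and 0.38 in control arrays, against -0.003 and 0.02 over all genes. Across the members the excess in EBF1 arrays and that in the controls had a Pearson r of 0.90 (n = 35 genes, which are not independent), and over all genes r was 0.40.

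An F-test of array number in set 1, run with limma after this pattern had been seen, called 0 members and 0 of all genes after adjustment (0% of genes). At an unadjusted p under 0.05 it counted 17 of 35 members (48.6%) and 12.6% of all genes. The lowest F-test p-values from limma belonged to Oasl1 (0.0012), Usp18 (0.0013) and Oas3 (0.0013), each with an adjusted p of 0.377. The median deviation of the members from the set's control mean was -0.51, 0.48 and -0.14 log2 units on EBF1 arrays 1, 2 and 3, against -0.01, 0.25 and -0.26 on the controls. In all, 3, 28 and 12 of the 35 genes were above the control mean on the EBF1 arrays, against 16, 27 and 2 on the controls. The PAX5 arrays, 2 of which count as 1 sample, lay closer together, with medians of -0.07, 0.04 and 0.01, against -0.01, 0.20 and -0.23 on the controls of set 2.

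**Figure D2:**
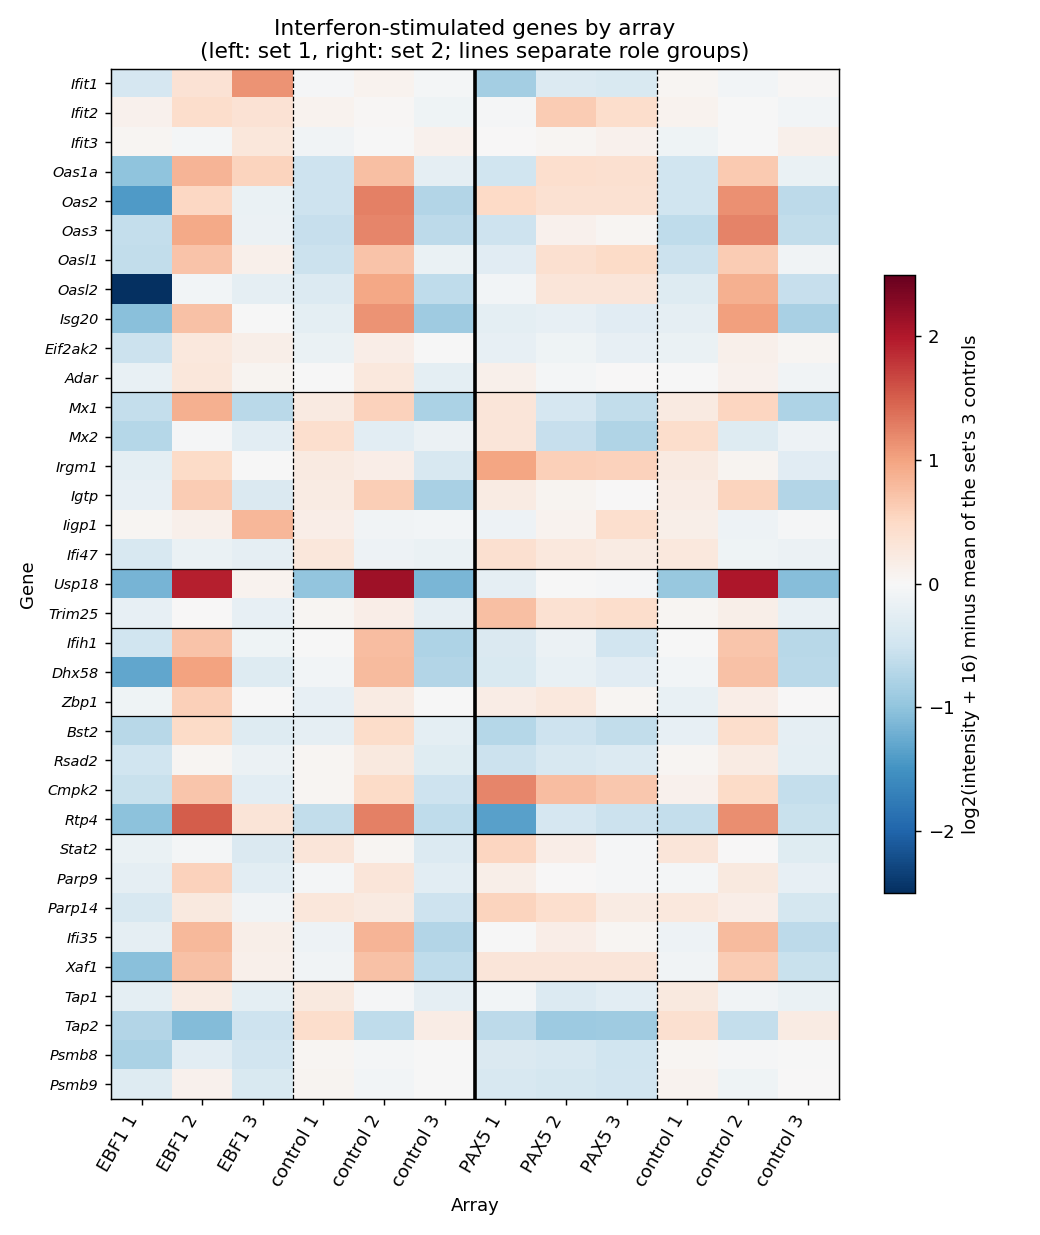
Heat map of log2(intensity + 16) minus the mean of the 3 controls of the set, with the 35 genes in rows by role and the 12 arrays in columns (EBF1 then control at left, PAX5 then control at right). The column of EBF1 array 2 is red for most genes, as are the columns of control array 2, with 28 and 27 of 35 genes above the control mean in set 1, while EBF1 array 1 is mostly blue.

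Intensities of marker genes of other cell types were summed on each array. The 17 OP9 stroma genes summed to 4169, 2834 and 14443 on EBF1 arrays 1 to 3, against 3544, 2617 and 2657 on the controls of set 1, so that array 2 was the lowest in both groups. The 8 plasmacytoid dendritic genes measured summed to 5374, 7110 and 10127 on EBF1 arrays, against 15529, 12480 and 13690 on controls. The 9 macrophage genes summed to 479, 655 and 957 on EBF1 arrays, against 1710, 1185 and 968 on controls, and the 10 natural killer genes to 8578, 6644 and 3638 on EBF1 arrays, against 1486, 1245 and 1038 on controls. On PAX5 arrays the macrophage genes summed to 5582, 3880 and 3874, against 2313, 1835 and 1674 on the controls of set 2. Most of that excess was Ccr2, a chemokine receptor, at 3406, 2129 and 2177 on PAX5 arrays, against 318, 370 and 241 on controls, and the median log2 change of the 9 genes with PAX5 was 0.04, with 5 above and 4 below 0. Cxcl12 made up part of the stromal sum of EBF1 array 3, at 3366, against 143 and 134 on EBF1 arrays 1 and 2. Of the 17 stroma genes, 16 had positive log2 changes with EBF1 and 1 a negative one, with a median of 0.57, and limma called 0. The natural killer sums of EBF1 arrays were mostly Gzma, at 8223, 6138 and 2877, against 61.7, 38.2 and 38.9 on controls, while the defining markers Ncr1, Eomes and Tbx21 stayed under 50 on all arrays of set 1. Siglech, which defines plasmacytoid dendritic cells, read 22.7, 21.4 and 21.3 on EBF1 arrays, against 143, 40.4 and 34.2 on controls. The list did not move as one with EBF1, since 5 log2 changes were negative and 3 positive, with a median of -0.52. Limma called 1 gene of it, Spib, which rose by 3.27 log2 units (adjusted p 0.027 by limma), at 726, 898 and 259 on EBF1 arrays, against 61.9, 33.9 and 37.2 on controls. The other genes with positive log2 changes, Pacsin1 and Klk1, were not called (adjusted p 0.481 and 0.154 by limma). The interleukin-7 receptor gene Il7r also set control array 2 apart, at 737, against 3111 and 2362 on control arrays 1 and 3. None of these sums for other cell types was highest on array 2 of a set 1 group. The 10 progenitor genes summed to 19589, 20670 and 18487 on EBF1 arrays, with array 2 highest. On the controls of set 1 they summed to 23998, 17360.5 and 21981, with array 2 lowest. The part of all these sums in the members' levels was not tested.

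**Figure D3:**
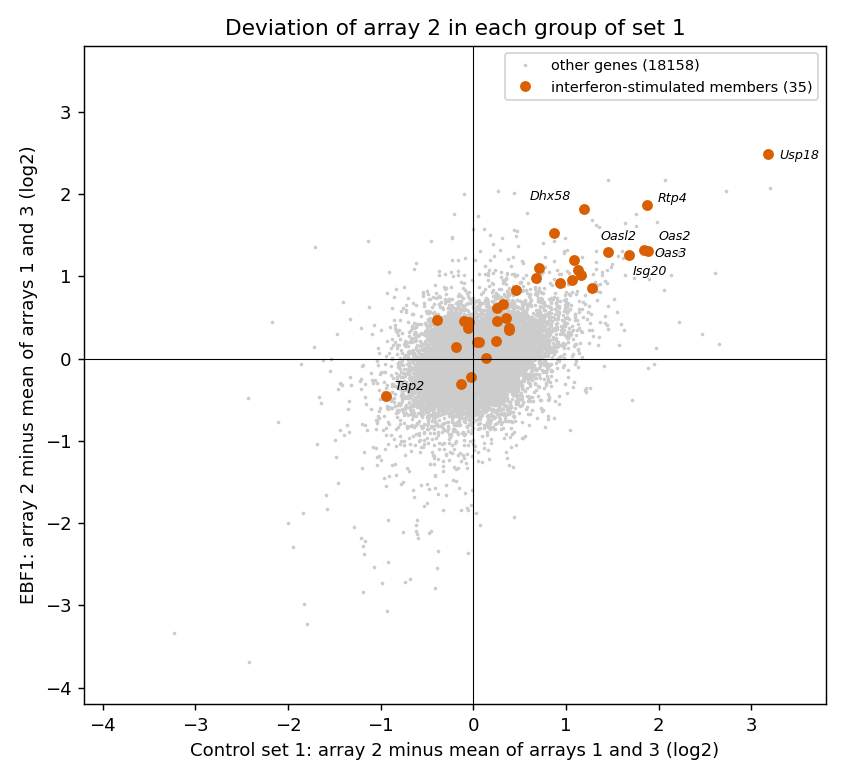
Excess of array 2 over the mean of arrays 1 and 3, in log2 units, in control set 1 (horizontal axis) and in EBF1 arrays (vertical axis), for the 35 members (orange) and 18158 other genes (grey). Most members lie to the upper right, with Usp18 and Rtp4 the farthest out among the labelled ones and Tap2 the farthest to the lower left.

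Among the 11 RNA-binding effectors and RNA enzymes, array 2 was brightest in both groups of set 1 for 8, with a median excess of 0.95 in EBF1 and 1.07 in control arrays. Oasl2, an OAS-like protein, read 23.2, 196 and 175 on EBF1 arrays 1, 2 and 3, against 161, 421 and 128 on the controls of set 1. EBF1 array 1 was far below every other array, and the groups overlapped. Its log2 change with EBF1 was -0.94 (SE 0.64), with an adjusted p of 0.626 by limma. Without control array 2 Oasl2 changed by -0.45, and by -0.88 without array 2 of both the EBF1 and control groups. On PAX5 arrays it read 216, 288 and 285, against 181, 437 and 149 on the controls of set 2, with all PAX5 values inside the control range.

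The OAS enzymes make linked oligoadenylates that switch on RNase L, and their genes lie on chromosome 5. Oas1a read 76.6, 320.2 and 257 on EBF1 arrays, against 113, 297 and 142 on the controls. Oas2 read 62.5, 285 and 170.1 on EBF1 arrays, against 130.5, 485 and 110.0 on the controls. In both genes array 2 was the highest in each group and the groups overlapped. Whether probe sets of these related genes cross-hybridise was not tested. Oas3 was dim, with 11.6, 65.2 and 22.0 on EBF1 arrays and 12.2, 82.2 and 10.8 on controls, and together with Ifit1 it was one of 2 members that reached 100 on no array. The exonuclease Isg20 read 114, 432 and 253 on EBF1 arrays, against 214, 571 and 131 on controls, again with array 2 highest in both groups.

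Adar, which edits adenosine to inosine in double-stranded RNA, differed less between arrays. It read 499, 697 and 597 on EBF1 arrays, against 567, 684 and 479 on controls of set 1, and 622, 549 and 569.9 on PAX5 arrays, against 559, 609.6 and 533 on controls of set 2. Its log2 change was 0.05 with EBF1 (95% interval -0.29 to 0.40) and 0.06 with PAX5 (-0.33 to 0.45), which are narrower intervals than those of most members. The Ifit genes, whose products bind foreign RNA ends, lie on chromosome 19 and did not share the pattern of array 2. Ifit1 read 16.7, 40.4 and 80.1 on EBF1 arrays, against 27.0, 30.7 and 26.3 on controls, with array 3 the highest of the EBF1 group. On PAX5 arrays it read 12.3, 24.3 and 23.2, below all controls of set 2 at 36.9, 33.0 and 36.2. The log2 change of Ifit1 was 0.35 with EBF1 (adjusted p 0.751 by limma) and -0.61 with PAX5 (adjusted p 0.712 by limma).

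Ifit2 read 114, 146 and 138 on EBF1 arrays, against 112, 107 and 95.1 on controls, and was the only member whose EBF1 values all lay above the controls (2.86% of members, against 7.67% of all genes). Its log2 change was 0.30, with an adjusted p of 0.542 by limma. Ifit3, Oasl1 and the RNA-activated kinase Eif2ak2 had log2 changes of 0.10, 0.08 and -0.04 with EBF1 and of 0.05, 0.08 and -0.18 with PAX5, each with a limma adjusted p of 0.828 or more.

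The 6 GTPases were mixed, with array 2 brightest in both groups for 2 of them, Mx1 and Igtp. Ifi47, an immunity-related GTPase above 500 on every array, read 1711, 2018 and 1939.8 on EBF1 arrays, below the controls at 2758, 2069 and 2026. Ifi47 and Psmb8 were the 2 members with all EBF1 values below the controls (5.71%, against 6.76% of all genes), and 5 lay inside the control range (14.3%, against 21.6%). Ifi47 read 2978, 2711 and 2585 on PAX5 arrays, against 2690.5, 2072 and 2031 on controls of set 2, where the groups overlapped. By limma its log2 change was -0.26 with EBF1 (adjusted p 0.546) and 0.32 with PAX5 (adjusted p 0.610), and the difference between these changes was -0.58 (unadjusted p 0.0066, adjusted p 0.122). Irgm1, an immunity-related GTPase tied to autophagy of intracellular microbes, read 1611, 1227 and 1214 on PAX5 arrays, all above the controls at 945, 844 and 660.0. With PAX5 its log2 change was 0.78 (SE 0.25), with an adjusted p of 0.338 by limma, and with EBF1 it was 0.08. Its EBF1 values were 895, 1504 and 1063, against 1246, 1206 and 810.2 on controls, and the groups overlapped.

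Mx2, a dynamin-like GTPase, read 51.0, 92.8 and 75.8 on EBF1 arrays, against 132, 76.2 and 83.2 on controls, and 134, 65.7 and 56.7 on PAX5 arrays, against 151, 82.1 and 95.6 on controls of set 2. In those last groups array 1 was the highest, and the log2 changes were -0.34 with EBF1 and -0.18 with PAX5. Mx1 read 55.9, 185 and 52.0 on EBF1 arrays, against 110.4, 146 and 46.5 on controls. Igtp and Iigp1 had log2 changes of 0.02 and 0.33 with EBF1 and of 0.13 and 0.06 with PAX5, with limma adjusted p-values of 0.606 or more.

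Usp18, the protease that removes ISG15 from proteins and restrains the type I receptor, had the widest intervals of the list. It read 59.6, 636 and 163 on EBF1 arrays, against 69.5, 718 and 60.6 on the controls of set 1, and 142, 168 and 167 on PAX5 arrays, against 80.5, 736 and 72.7 on the controls of set 2. Array 2 was 5.61-fold above the mean of the others among EBF1 arrays and 9.07-fold among controls, both computed from log2(intensity + 16). Its log2 change was 0.29 with EBF1 (95% interval -1.86 to 2.45) and -0.13 with PAX5 (-2.54 to 2.29). Without control array 2 these became 1.35 (adjusted p 0.479 by limma) and 0.88 (adjusted p 0.855 by limma). With array 2 left out of EBF1 and control groups alike, the EBF1 change was 0.52 (adjusted p 0.659 by limma). With number as a term in a fit of set 1, the SE of the EBF1 change was 0.32, against 1.07 in the same fit without it. The shared probe set of Isg15 and Gm9706, which was not counted, read 176, 625 and 305 on EBF1 arrays, against 183, 496 and 153 on controls.

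Trim25, the ubiquitin ligase that acts with the RNA sensor RIG-I, was the member with the lowest adjusted p with PAX5. It read 2855, 2189 and 2277 on PAX5 arrays, all above the controls at 1741, 1856 and 1465. On EBF1 arrays it read 1424, 1663 and 1438, inside the control range of 1718, 1849 and 1419. By limma the log2 change was 0.58 with PAX5 (SE 0.16, adjusted p 0.246) and -0.13 with EBF1 (SE 0.15, adjusted p 0.793). All 3 of its probe sets gave a PAX5 change of 0.48 to 0.58. The difference, EBF1 minus PAX5, was -0.72 (SE 0.16) with an adjusted p of 0.070 by limma, and it passed 0.05 in 2 of 17 alternatives, at 0.0488 when dim genes were left out and 0.0373 with array weights. Over the difference 0 of 35 members were called, where 1.94% of all genes were, and 6 of 35 had an unadjusted p under 0.05 (17.1%, against 17% of all genes).

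All 3 cytosolic nucleic acid sensors were brightest on array 2 in both groups of set 1, and all 3 had an unadjusted F-test p under 0.05. Dhx58, the regulator LGP2, read 49.7, 309 and 114 on EBF1 arrays, against 139, 266 and 82.3 on controls, and 121, 141 and 132 on PAX5 arrays, against 155, 283 and 96.5 on controls of set 2. Ifih1, the sensor MDA5 of long double-stranded RNA, read 165, 406 and 224 on EBF1 arrays, against 239.8, 424 and 136 on controls, and 204, 239.6 and 187 on PAX5 arrays, against 266, 442 and 159.6 on controls. In both genes the PAX5 values lay inside the range of their controls. Zbp1, which senses Z-form nucleic acid, read 92.6, 162 and 99.3 on EBF1 arrays, against 86.0, 119 and 99.8 on controls. The log2 changes with EBF1 were 0.03 for Ifih1, -0.21 for Dhx58 and 0.16 for Zbp1, and with PAX5 they were -0.34, -0.31 and 0.17.

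**Figure D4:**
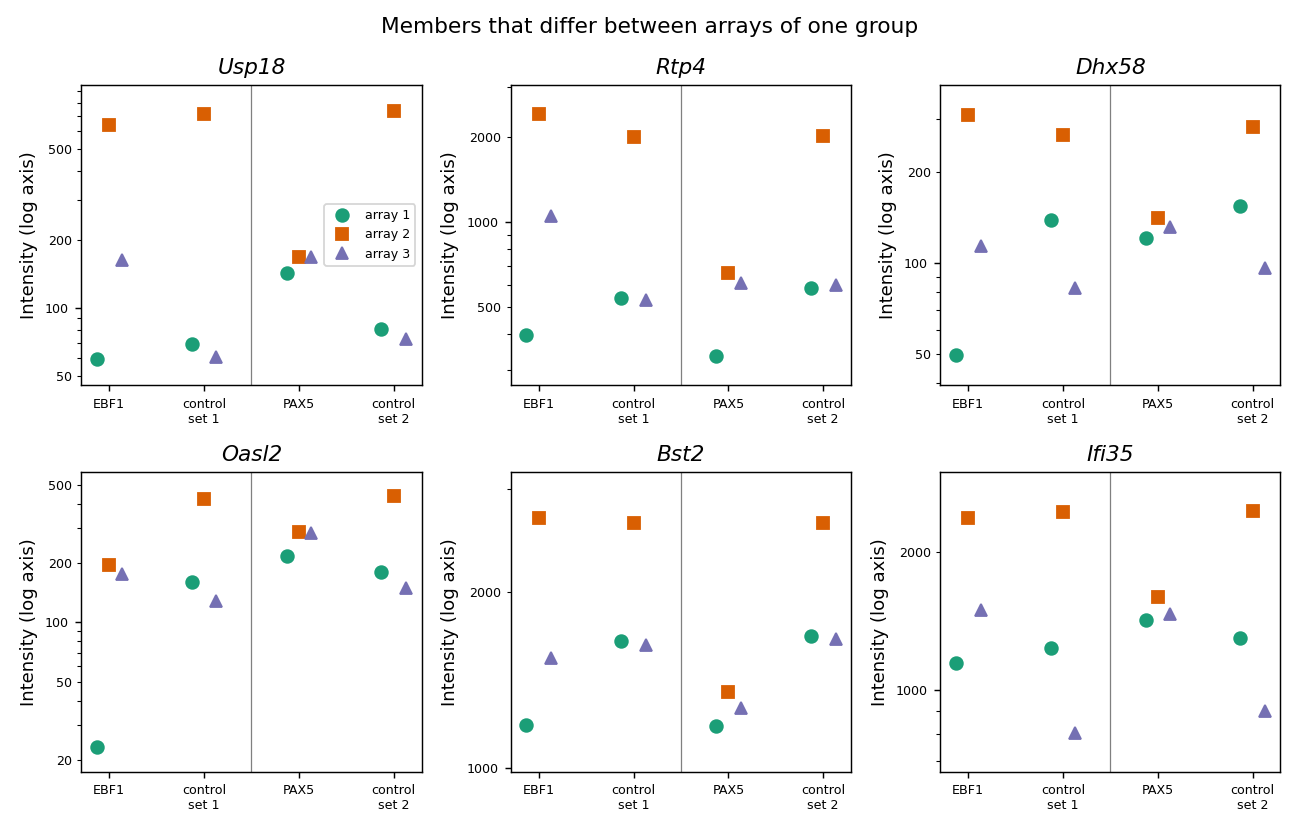
Intensities on a log axis of Usp18, Rtp4, Dhx58, Oasl2, Bst2 and Ifi35, with each point an array of the EBF1, control set 1, PAX5 or control set 2 group and its shape giving the array number. Array 2 (squares) is the highest point of the EBF1 and of both control columns in all 6 panels, and the PAX5 points spread less than their controls.

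Of the membrane-linked and nucleotide-level effectors, all 4 were brightest on array 2 in both groups of set 1 by the probe set used. Rtp4, a receptor chaperone, read 399, 2399 and 1048 on EBF1 arrays, against 537, 1998 and 528 on controls, and 336, 661 and 609 on PAX5 arrays, against 582, 2009.9 and 597 on controls of set 2. Its log2 change with PAX5 was -0.92 (SE 0.76, adjusted p 0.803 by limma), and -0.34 without control array 2. With EBF1 it was 0.27, then 0.90 without control array 2, and 0.28 without array 2 of both the EBF1 and control groups. The other probe set of Rtp4 was dim and showed no such excess, with 54.4, 66.6 and 67.2 on EBF1 arrays, against 44.1, 43.9 and 44.0 on controls.

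Bst2 encodes tetherin, which holds budding virions at the membrane and also marks mouse plasmacytoid dendritic cells. It read 1184, 2683 and 1539 on EBF1 arrays, against 1648, 2630.1 and 1620.4 on controls. On PAX5 arrays it read 1179, 1350.0 and 1266, below all the controls of set 2 at 1679, 2629 and 1659. Its log2 change with PAX5 was -0.64 (SE 0.33, adjusted p 0.626 by limma) and with EBF1 -0.17 (adjusted p 0.884 by limma). The plasmacytoid dendritic genes summed to 18332, 16445 and 15890 on PAX5 arrays, against 15656, 12738 and 13996 on these controls. Of these 8 genes, 5 had negative log2 changes with PAX5 and the median was -0.05. The higher sums came with Irf8, at 5275, 3573 and 3393 on PAX5 arrays, against 1804, 955 and 863 on controls, and with Spib, at 1681, 1130.1 and 1268 on PAX5 arrays, against 103, 76.0 and 60.4 on controls. Both encode transcription factors that B-lineage cells also use, and limma called Spib (adjusted p 0.0063) and not Irf8 (adjusted p 0.0638).

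Cmpk2, a mitochondrial nucleotide kinase, read 885, 640.1 and 595 on PAX5 arrays, all above the controls at 400.3, 519 and 239.8. It read 227, 561 and 279.8 on EBF1 arrays, against 353, 476 and 232 on controls, where the groups overlapped. The log2 change of Cmpk2 was 0.97 with PAX5 (SE 0.40, adjusted p 0.494 by limma) and -0.04 with EBF1, and its other probe set gave 0.47 with PAX5. Its neighbour on chromosome 12, Rsad2, which encodes the antiviral enzyme viperin, lay lower on all PAX5 arrays at 104, 115 and 119.6, against 162, 183 and 129 on controls. The log2 change of Rsad2 was -0.45 with PAX5 (adjusted p 0.538 by limma) and -0.20 with EBF1 (adjusted p 0.738 by limma). A further probe set of Rsad2 read 52.8, 86.4 and 63.9 on EBF1 arrays, against 78.4, 89.7 and 68.9 on controls, with array 2 highest in both groups. Another read 67.1, 65.6 and 70.6 on EBF1 arrays, below the controls at 85.0, 85.7 and 114, with array 2 highest in neither. It gave a log2 change of -0.40 with EBF1 (adjusted p 0.375 by limma).

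Of the 5 signalling genes and regulators, 3 (Parp9, Ifi35 and Xaf1) were brightest on array 2 in both groups of set 1. Ifi35 read 1145, 2379 and 1491 on EBF1 arrays, against 1233, 2449.5 and 806 on controls, and 1421, 1595 and 1467 on PAX5 arrays, against 1302, 2465 and 898 on controls of set 2. For Ifi35 the log2 change was 0.24 with EBF1 and 0.05 with PAX5. Xaf1, which promotes cell death by opposing XIAP, read 158, 579.5 and 374 on EBF1 arrays, against 319, 573 and 214 on controls, and its PAX5 values lay together at 462, 458 and 457. Parp14, an ADP-ribosyltransferase, read 330.1, 529 and 418 on EBF1 arrays, against 545, 524 and 304 on controls, and 718, 649 and 559.5 on PAX5 arrays, against 586, 547 and 352 on controls. Stat2, the partner of Irf9, read 144, 157 and 125 on EBF1 arrays, against 207, 169 and 126 on controls, and 282, 212 and 185 on PAX5 arrays, against 236, 189 and 149.7 on controls. Neither passed the test, with log2 changes of -0.08 and -0.20 with EBF1 and 0.43 and 0.30 with PAX5, and the values of Parp9 were 0.03 with EBF1 and 0.07 with PAX5.

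The 4 class I antigen processing genes, all on chromosome 17 and above 500 on every array, included none that was brightest on array 2 in both groups. All 4 log2 changes were negative with EBF1, with a median of -0.35, and with PAX5, with a median of -0.41. The EBF1 and PAX5 values share their controls, and class I genes outside this group had mixed signs. With EBF1 and PAX5 in turn, B2m changed by 0.08 and 0.10, H2-K1 by 0.24 and -0.02, and H2-D1 by 0.20 and -0.04. Tapbp changed by -0.19 and 0.33, Tapbpl by -0.18 and 0.25, Psmb10 by -0.23 and -0.03, and Psme1 by -0.12 and -0.12. Psmb8, an immunoproteasome subunit, read 1379, 1992 and 1706 on EBF1 arrays, below the controls at 2495, 2327 and 2368, which gives 1692 ± 307 in EBF1 arrays and 2397 ± 88.1 in controls (SD, n = 3 each). On PAX5 arrays it read 1861, 1799 and 1689.8, again below all the controls at 2467, 2319.6 and 2354. For Psmb8 the log2 change was -0.51 with EBF1 (SE 0.14, adjusted p 0.216 by limma) and -0.40 with PAX5 (SE 0.16, adjusted p 0.472 by limma).

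Tap2, a chain of the peptide transporter, read 925, 725 and 1076 on EBF1 arrays, against 2102, 994 and 1769 on controls, and 1022, 858 and 863 on PAX5 arrays, against 2138, 1059 and 1868 on controls of set 2. Control array 2 was near the EBF1 values, while the other controls were far above them. By limma the log2 change was -0.77 with EBF1 (SE 0.27, adjusted p 0.314) and -0.78 with PAX5 (SE 0.30, adjusted p 0.444). Without control array 2 the changes were -1.09 (adjusted p 0.115 by limma) and -1.08 (adjusted p 0.111 by limma). With array 2 left out of EBF1 and control groups alike, the EBF1 change was -0.94 (adjusted p 0.291 by limma). Tap1, the other chain, read 766, 1053 and 768 on EBF1 arrays, against 1092, 894 and 787 on controls, with log2 changes of -0.10 with EBF1 and -0.19 with PAX5. Psmb9, a further immunoproteasome subunit, read 1146, 1111 and 1074 on PAX5 arrays, below the controls at 1608, 1403 and 1532, with a log2 change of -0.43 (adjusted p 0.443 by limma), and 1169, 1583 and 1125 on EBF1 arrays, against 1541, 1397 and 1449.6 on controls. On PAX5 arrays 6 members lay below all controls (17.1%, against 8.95% of all genes), namely Tap2, Psmb8, Psmb9, Ifit1, Bst2 and Rsad2, and 3 lay above (8.57%, against 9.34%), namely Irgm1, Trim25 and Cmpk2. Another 14 lay inside the control range (40%, against 25.7%).

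**Figure D5:**
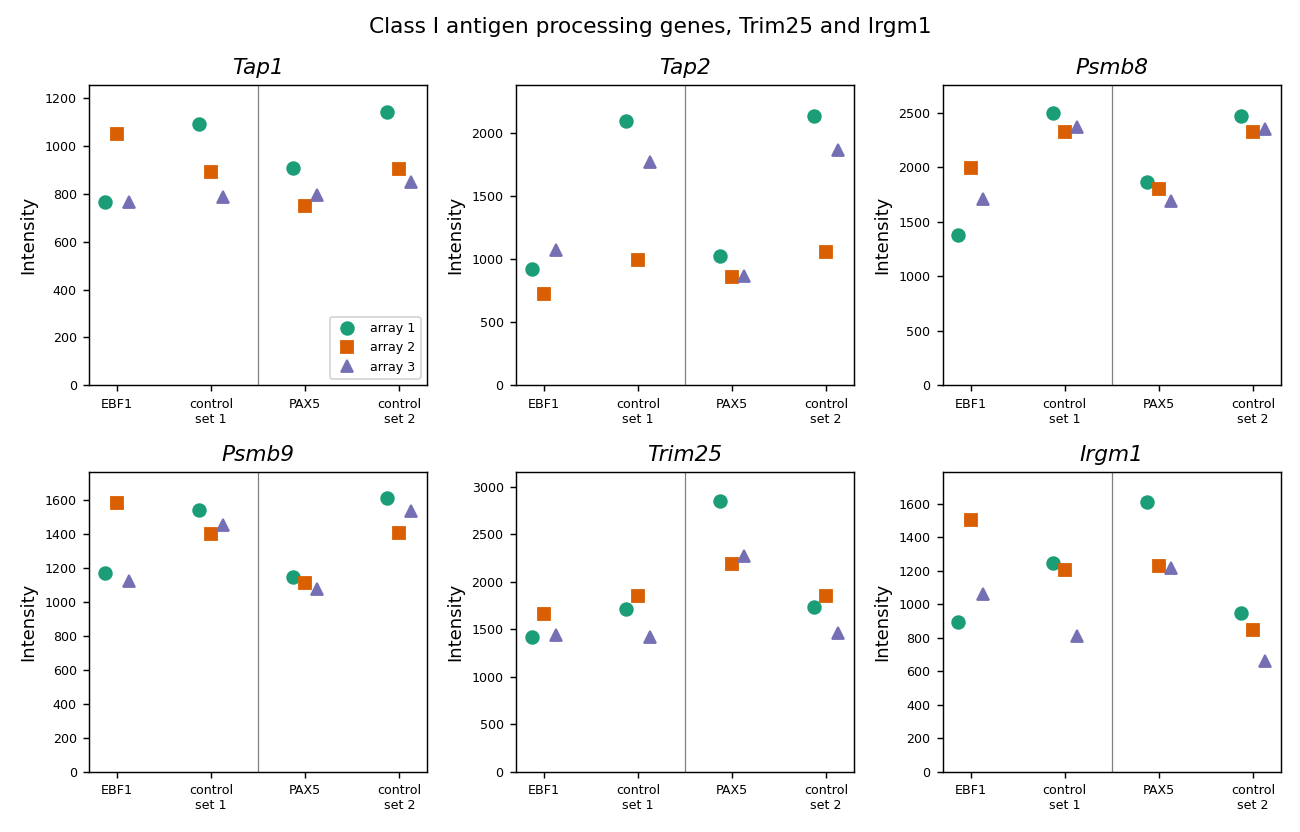
Intensities on a linear axis from 0 of Tap1, Tap2, Psmb8, Psmb9, Trim25 and Irgm1, with each point an array of the EBF1, control set 1, PAX5 or control set 2 group and its shape giving the array number. Psmb8 lies below its controls with EBF1 and with PAX5, Tap2 has control array 2 close to the EBF1 and PAX5 arrays, and Trim25 and Irgm1 lie above their controls with PAX5.

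The rest of the pathway was read from lists of ligands, receptors and kinases, interferon regulatory factors, sensors, and further interferon-stimulated genes. With EBF1 and with PAX5 limma called 0 of 7 ligands, 0 of 15 receptor and JAK-STAT genes, 0 of 6 regulatory factors, 0 of 11 sensors and adaptors and 0 of 46 further targets. At an unadjusted p under 0.05 the counts with EBF1 were 0, 7, 0, 2 and 7 in that order, and with PAX5 they were 1, 4, 1, 0 and 5, beside 11.6% of all genes with EBF1 and 9.45% with PAX5. The receptor counts lay above these shares in both comparisons, and those of the further targets lay near them. Of the 7 receptor and JAK-STAT genes with EBF1, 5 were lower and 2 higher, and of the 4 with PAX5, 1 was lower and 3 higher. The ligands with the smallest p were Ifng and Ifna1 with EBF1, at log2 changes of 0.26 and 0.17, and Ifng and Ifnb1 with PAX5, at 0.78 and -0.18. Ifng, which encodes interferon-gamma, was dim, with 16.5, 28.4 and 22.4 on EBF1 arrays, against 18.0, 17.2 and 12.3 on controls, and 45.4, 27.7 and 42.2 on PAX5 arrays, against 19.8, 18.8 and 11.5 on controls of set 2. Of the 46 further targets, 24 were brightest on array 2 in both groups of set 1, beside 17.3% of all genes, and 1 was dimmest, beside 15.5%. An unadjusted F-test p under 0.05 was found for 16 of them, beside 12.6% of all genes.

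Ifngr2, a chain of the interferon-gamma receptor, came nearest to a call in the receptor list. It read 293, 283 and 243 on EBF1 arrays, all above the controls at 125, 177 and 165, and 292, 326 and 325 on PAX5 arrays, all above the controls of set 2 at 144, 194 and 186. By limma its log2 change was 0.76 with EBF1 (SE 0.14, adjusted p 0.0999) and 0.78 with PAX5 (SE 0.16, adjusted p 0.0912). Without EBF1 array 3 the adjusted p by limma with EBF1 was 0.0414, and without control array 1 it was 0.326. With the mean of all probe sets of Ifngr2 the changes were smaller. They were 0.58 with EBF1 (adjusted p 0.186 by limma) and 0.61 with PAX5 (adjusted p 0.232 by limma). Socs3 and Socs1, which dampen JAK signalling, followed. The log2 change of Socs3 with EBF1 was 1.62 (adjusted p 0.181 by limma), and that of Socs1 with PAX5 was -0.66 (adjusted p 0.249 by limma). Lower with EBF1 at an unadjusted p under 0.05 were Ifnar2 (-0.78), Il10rb (-0.72), Jak2 (-0.58), Ptpn6 (-0.51) and Ifngr1 (-0.38). Their limma adjusted p-values were 0.218 or more.

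Nlrc5, a transactivator of MHC class I genes, read 862, 874 and 414 on EBF1 arrays, all above the controls at 265, 316 and 202. Its log2 change with EBF1 was 1.35 (SE 0.28, adjusted p 0.117 by limma). It was 1.7 without EBF1 array 3 (adjusted p 0.0025 by limma) and 1.18 without EBF1 array 1 (adjusted p 0.353 by limma). With PAX5 it was 0.05. Ifitm2, which hinders virus entry at membranes, read 1463, 1779 and 1026 on EBF1 arrays, against 769, 687 and 471 on controls, and 434, 371 and 352 on PAX5 arrays, against 824, 711 and 534 on controls of set 2. Its log2 change was 1.12 with EBF1 (adjusted p 0.120 by limma) and 1.34 without EBF1 array 3 (adjusted p 0.0212 by limma). Pml, the scaffold of nuclear bodies, read 838, 658 and 656 on PAX5 arrays, all above the controls at 310, 403 and 441, with a log2 change of 0.93 (adjusted p 0.0538 by limma). Gbp3, a guanylate-binding protein, read 334, 278 and 245 on PAX5 arrays, against 186, 91.8 and 89.5 on controls. Its log2 change was 1.24 with PAX5 (adjusted p 0.123 by limma). That change was 1.55 without control array 1 (adjusted p 0.0117 by limma) and 1.09 without control array 2 (adjusted p 0.324 by limma). Other genes that the naming rule picked were Irf1 and Irf5 with EBF1, at -0.46 and -0.27, Irf5 and Irf2 with PAX5, at 0.56 and 0.16, Tlr7 at -0.73 with EBF1 and 0.51 with PAX5, Myd88 at 0.37 with PAX5 and Ly6e at 0.44 with EBF1, none of which passed the test.

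For the contrast of the EBF1 change with the PAX5 change limma called Ifitm2, Pml and Irf5 of these lists. Ifitm2 differed by 1.88 log2 units (adjusted p 0.011 by limma), higher with EBF1, and passed the threshold in 15 of 17 alternatives, the exceptions being without PAX5 array 1 (0.124) and without the arrays numbered 2 of the EBF1 and control groups (0.0635). Pml differed by -0.86 (adjusted p 0.046 by limma) and passed in 7 of 17, and Irf5, a factor downstream of Toll-like receptors, differed by -0.83 (adjusted p 0.048 by limma) and passed in 6 of 17. Both of these lost the call without EBF1 array 1, 2 or 3, without control array 2 or 3 and without PAX5 array 1, at adjusted p-values by limma of up to 0.478 and 0.473, and Irf5 also without PAX5 array 3 (adjusted p 0.0571). With the mean of all probe sets of a gene the difference of Irf5 was only -0.33 (adjusted p 0.329 by limma) and that of Pml -0.73 (adjusted p 0.106 by limma). Without PAX5 array 1 the PAX5 group is 1 sample, assumed to vary like the other groups, so the calls lost there rest on a spread taken from EBF1 and control arrays alone.

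The response element was also set beside the array pattern. The 11 members with the element in the promoter window had a median excess of array 2 of 0.62 in EBF1 arrays and 0.38 in controls, and the 13 with a window but no match had 0.46 in EBF1 arrays and 0.38 in controls. Both kinds ranged widely, between -0.22 and 1.33 in EBF1 arrays among those with a match, and between 0.15 and 1.29 among those without.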

How the data were processed

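The members and the gene lists were chosen with earlier results of these data known. Values were deposited as 1 linear intensity for each probe set and array. Affymetrix arrays were hybridised with biotin-labelled cRNA, per the labels' protocols, and how the authors summarised probes and scaled arrays is a step not given in the sources used here. Array medians were 55.1 to 60.6 in set 1 and 65.3 to 68.9 in set 2. The platform annotation gave 1 symbol to 34945 of 45037 probe sets, several to 932 and none to 9160, and 34741 were matched by Entrez ID to RefSeq genes of GRCm38.p6, with 0 symbols replaced.

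Intensities were used as log2(intensity + 16), 1 probe set per gene, with no filter and no further normalization. The constant understates changes of dim genes. EBF1 arrays were set against controls of set 1 and PAX5 arrays against those of set 2, once each gene's shift between both control sets had been taken out. The tests used R 4.3.3 with limma 3.58.1 (lmFit and eBayes, 5 residual and 3.53 prior degrees of freedom) and data.table (version 1.17.8), Benjamini-Hochberg adjustment over 18193 genes and a threshold of 0.05. Standard deviations are between arrays. The fit was tested on simulated data.

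Array numbers were checked for pairing by the correlation of deviations from the group means. For EBF1 and control arrays of set 1 it was 0.21, 0.40 and 0.22 over all genes for numbers 1, 2 and 3, each over 0.1, which counts as paired, and for PAX5 and control arrays it was 0.24, 0.08 and 0.18, which does not. Over the members the correlation for EBF1 and control arrays of set 1 was 0.76, 0.90 and 0.33. The main fit has no block, so its EBF1 intervals and p-values leave the pairing of set 1 unused. Members were named with all array values if they passed a test, if they had an unadjusted p under 0.05 and a log2 change of at least 1 in size, or if they were the brightest or the most changed of their role. The first 2 conditions named 0 genes and the last 17, and the other members whose values are printed were chosen after these were seen. Of the pathway lists, the 2 genes with the smallest p per comparison were named, and Ifitm2, Pml and Irf5 also because their difference passed the test. The 5 receptor and JAK-STAT genes lower with EBF1 at an unadjusted p under 0.05 were added to these. The F-test of array number and the omission of the arrays numbered 2 were added after the values were seen.

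Alternatives were an added constant of 1 or 64, a filter on mean level, quantile normalization, the mean of a gene's probe sets, every probe set on its own, all 12 arrays separately, each set alone, a replicate block, array weights, and leaving out each array. Motifs were searched in RefSeq promoters with pandas 2.3.3 in Python 3.11.15, and figures were drawn with matplotlib 3.10.9.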

Additional observations from a re-analysis of the deposited data

How the results depend on the processing

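The counts of members called with EBF1 were 0 in all 20 alternatives (lowest adjusted p by limma 0.0828, with 12 separate arrays). With PAX5 they were 0 in all 20 (lowest 0.0769, Irgm1 with the replicate block). Counts at an unadjusted p under 0.05 ranged from 1 to 4 with EBF1. The 4 are of 58 probe sets, each tested on its own, beside 4488 of all 45037 probe sets. With PAX5 these counts ranged from 3 to 12, leaving out the fit without PAX5 array 1, where PAX5 is 1 sample. The 12 came with the replicate block and are of 35 members, beside 2612 of 18193 genes. That fit, like those of each set alone and of 12 separate arrays, counted PAX5 arrays 2 and 3 as separate samples. It also used the array numbers of set 2, which did not count as paired. For the difference of the changes, 0 members were called in 16 of 18 alternatives and 1, Trim25, with the filter on mean level and with array weights. Leaving out each array in turn moved the median log2 change of the members. With EBF1 it lay between -0.31 (without EBF1 array 2) and 0.18 (without control array 2). With PAX5 it lay between -0.17 (without control array 3) and 0.24 (without control array 2). Without array 2 of both the EBF1 and control groups the EBF1 median was -0.09.

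Over all genes, the 40 calls with EBF1 became 23 with a constant of 1, 10 with a constant of 64, 16 with the filter, 201 with 12 separate arrays, 10 with each set alone, 66 with array weights, 6 without the arrays numbered 2 of the EBF1 and control groups, and 10 to 406 when each array was left out, the most without EBF1 array 3. The 159 calls with PAX5 became 84, 357, 244 and 66 with a constant of 1, 12 separate arrays, each set alone and without the arrays numbered 2, and 28 to 176 when each array was left out, the fewest without PAX5 array 1. The 353 calls for the difference became 194, 156, 777 and 108 with a constant of 1, 12 separate arrays, array weights and without the arrays numbered 2, and 55 to 575 when each array was left out, again fewest without PAX5 array 1, where PAX5 is 1 sample assumed to vary like the other groups. With the replicate block, which counted PAX5 arrays 2 and 3 separately, 5 genes were called with EBF1 and 251 with PAX5. It changed the call of 0 members. Over the alternatives the limma adjusted p of Ifngr2 with EBF1 ranged from 0.0363 to 0.326. That of Nlrc5 ranged from 0.0025 to 0.353 and that of Ifitm2 from 0.0212 to 0.353. With PAX5, leaving out the fit without PAX5 array 1, it ranged from 0.0165 to 0.232 for Ifngr2. For Pml it was 0.0155 to 0.204 and for Gbp3 0.0117 to 0.413. The values 0.0363, 0.0165 and 0.0155 came from 12 separate arrays, where pairs that otherwise count as 1 sample are counted separately. Causes were not tested. Members not above about 100 on any array, Ifit1 and Oas3, are limited by signal over background.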
